A study of Homo sapiens and Mus musculus with 7 samples.

Results

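KAP1 binding in sorted mouse red cell precursors was examined here where it was most crowded: 5612 weak or moderate, narrow KAP1 peaks lying in the most peak-rich megabases of the autosomes. The deposited list held 45024 peaks, of which 44780 were on the 19 autosomes. Each autosomal peak was assigned by its start to a window of 1 Mb, and windows with at least 40 peaks were called dense. The 5612 peaks are those of dense windows with a caller's score below 100 and a width below 1300 bp, and they are called dense-window peaks below. They were thus chosen by their measured position, score and width, and these values are described without a test. They made up 12.5% of the autosomal peaks.

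The chromatin came from bone marrow cells sorted by flow cytometry as CD71+Ter119+, from mice of mixed strain aged 8 to 12 weeks. The labels describe the animals as Kap-flox/stopfloxYFP and their genotype as KAP1 WT. They name no Cre driver and no number of animals. CD71 is the transferrin receptor and Ter119 an antigen of the red cell lineage, and cells with both include erythroblasts and young reticulocytes. KAP1 was precipitated with a rabbit antibody raised against residues 20 to 418 of the protein, and an IgG precipitate and total input chromatin served as controls. Each of these 3 groups was 1 library, so no value below has a replicate. The series also holds 4 RNA libraries of the human line HEL, a knockdown and a control each with and without hemin, which were not used here.

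KAP1, also named TRIM28, is a scaffold protein that does not itself read DNA sequence. Zinc finger proteins with a KRAB domain bring it to their sites, where it gathers the histone methyltransferase SETDB1 and the heterochromatin protein HP1, and the histone mark H3K9me3 is laid down. In this way it silences transposable elements and genes, and it also covers parts of the zinc finger gene clusters themselves. In red cell formation KAP1 is needed in the bone marrow for normal maturation of erythroblasts. A peak list records where its signal passed a threshold, with no statement on silencing. The authors marked the deposited list as one without repeats, and binding at repeats was not analysed here.

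Coordinates are those of mm9, counted from 1. Neither sequence nor gene annotation of mm9 was used here, so the peaks are described by position, spacing, width and score. Depth of the 3 chromatin libraries is unknown, since the list carries no read numbers. The score is the peak caller's own, and the sources used here do not give its scale. Its lowest value in the list was 50, its highest 1558.86. How cells of other types in the sort would contribute cannot be read from a peak list.

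At least 1 peak was found in 2400 autosomal windows, and 147 of them (6.12%) were dense. The median window held 17 peaks, with quartiles of 8 and 28, and the median dense window held 43. The fullest window held 55 peaks, and 16 windows held 50 or more. The counts ran smoothly across the limit, as 28 windows had 39 peaks and 21 windows had 40. Dense windows are thus the upper tail of a continuous range, not a separate class.

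**Figure D1:**
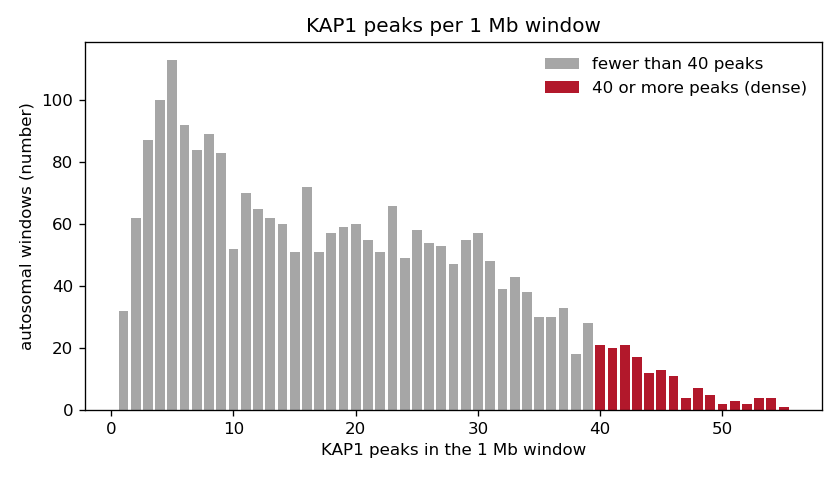
Number of autosomal 1 Mb windows (vertical axis) by the number of KAP1 peaks they held (horizontal axis), with dense windows in red. The counts fall off without a gap at the limit of 40 peaks, and the fullest window holds 55.

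Dense windows held 6501 peaks, and 5612 of these (86.3%) met both limits. Of the other 889 peaks, 589 had a score of 100 or more, 455 a width of 1300 bp or more, and 155 both. At the score limit, the nearest peaks inside were chr16:35247734-35248563 with a score of 99.86 and chr15:99745687-99746601 with 99.85. The nearest outside were chr8:10060865-10061633 with 100.07 and chr12:86249119-86249843 with 100.09. At the width limit, chr5:122096336-122097634 and chr12:87706160-87707458 were inside with 1299 bp, and chr4:153847791-153849091 was outside with 1301 bp. These peaks were picked for lying nearest to a limit. Over all 889 peaks beyond a limit the median score was 105.97 and the median width 1311 bp.

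The dense windows were spread unevenly over the chromosomes. Chromosome 11 held 18 dense windows, 15.1% of its windows, with 693 dense-window peaks. Chromosome 4 also held 18, with 686 peaks, and chromosome 2 held 17, with 650. These 3 chromosomes carried 36.2% of the dense-window peaks against 20.8% of all autosomal peaks. Chromosome 13 had 2044 peaks and no dense window, and chromosome 3 had 2306 peaks and 2 dense windows.

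When each chromosome was divided into 3 equal parts, counted from the start of its coordinates to its last peak, 83 of the 147 dense windows (56.5%) lay in the last part. The first part held 30 and the middle part 34. As a share of the windows in each part, 3.61% were dense in the first, 4.11% in the middle and 10.1% in the last. Mouse autosomes are acrocentric and their coordinates begin at the centromere, so the last part is the one farthest from it.

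Dense windows often lay side by side. Of the 147, 73 (49.7%) had another dense window next to them, on either side. Over all windows up to the last peak of each chromosome, 5.93% were dense. They formed 11 runs of 3 or more, 17 pairs and 74 single windows. The longest run covered 6 windows, chr4:133000001-139000000, with 265 peaks, 229 of them dense-window peaks. Runs of 4 windows were found at chr9:43000001-47000000 with 183 peaks, at chr11:94000001-98000000 with 178 and at chr11:116000001-120000000 with 176. The run at 94 Mb on chromosome 11 began abruptly, with 13 peaks in the window before it, whereas the windows flanking the long run on chromosome 4 still held 33 and 37.

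The surroundings of a dense window were rich in peaks over a few megabases. Windows directly next to a dense window held a median of 33 peaks, and 30.6% of them were dense themselves. At distances of 7 to 20 Mb between 7.87 and 14.2% were dense. At 3 Mb the median was 29 and at 5 Mb it was 23. From 7 to 20 Mb it was 21 or 22, above the median of 16 over all 2481 windows up to the last peak of each chromosome. Windows with fewer than 10 peaks made up 1.36% of the direct neighbours and 33.2% of all windows. The peak-rich stretches were thus wider than the windows used to find them, and a dense window seldom stood beside one with few peaks.

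**Figure D2:**
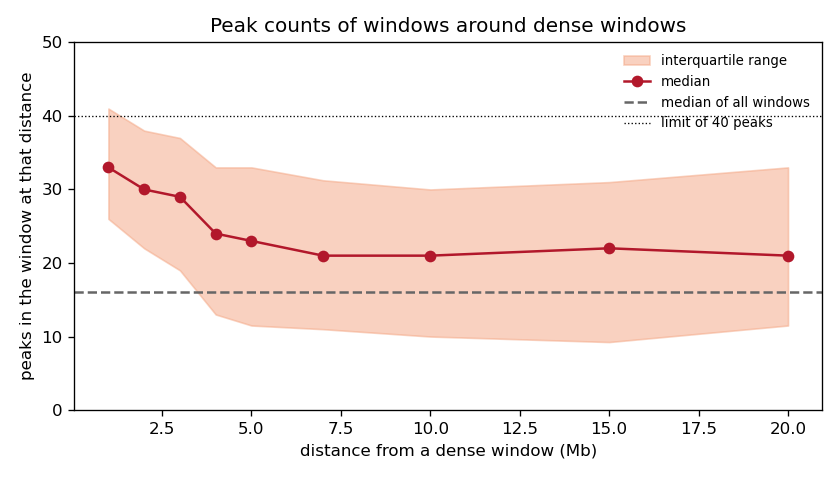
Peaks per 1 Mb window (vertical axis) at increasing distance in Mb from a dense window (horizontal axis), as the median with the interquartile range shaded. The median falls from 33 at 1 Mb to 21 at 7 Mb, and the dashed line marks the median of 16 over all windows.

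Within dense windows the peaks were spread over the whole megabase and not piled in a single place. When a window was cut into 10 parts of 100 kb, 121 of the 147 dense windows had a peak in all 10, 25 in 9 and 1 in 8. With at least 40 peaks in each window, filled parts follow in large part from the choice of windows. The longest stretch without a peak had a median of 107314 bp over windows and ranged from 54022 to 215716 bp. The longest one was in chr9:63000001-64000000, a window of 40 peaks. All peaks together covered a median of 3.56% of a dense window, from 2.63 to 6.16%. Even the fullest megabases were therefore mostly outside the peaks of this list. The list was marked as one without repeats, so peaks at repeats may be missing from the covered share and from the empty stretches. Stretches were measured within a window and end at its edges.

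Some 100 kb parts were fuller than others. The fullest part of a dense window held a median of 9 peaks, and 39 windows had a part with 10 or more. This part was picked as the fullest of 10 in each window. Whether its number exceeds that of random placement was not tested. The highest number was 14, reached at chr1:136100001-136200000, chr2:127200001-127300000 and chr11:107600001-107700000. The window around the last of these held 53 peaks and also had a stretch of 127258 bp without any, so its peaks were unevenly placed.

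Dense-window peaks lay close to their neighbours. The gap from the edge of a peak to that of the nearest other peak had a median of 6424 bp, with quartiles of 2481 and 14449 bp. They were set beside the 34631 autosomal peaks within the same limits of score and width in all other windows, called the comparison peaks, whose median gap was 14295 bp. A neighbour within 10 kb was present for 3500 dense-window peaks (62.4%, exact binomial 95% interval 61.1 to 63.6) and for 39.7% of comparison peaks (39.2 to 40.3). These intervals cover counting error only, and peaks of a window are not independent. Short gaps follow in part from the choice of crowded windows, so the difference is a description.

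The gap was therefore also expressed as a share of the mean interval between peaks in the same window. On this scale the median was 0.285 for dense-window peaks and 0.314 for comparison peaks, and 0.345 in windows of 1 to 9 peaks. In windows of 10 to 19, 20 to 29 and 30 to 39 peaks it was 0.306, 0.314 and 0.308, with no order. Relative to the mean interval, the spacing was thus alike in size, with a slightly lower value in dense windows. Gaps run from edge to edge and leave out peak width, which fills more of the shorter intervals in dense windows. Its part in the lower value was not tested. Gaps over 50 kb were found for 80 dense-window peaks (1.43%) and for 14.8% of comparison peaks.

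**Figure D3:**
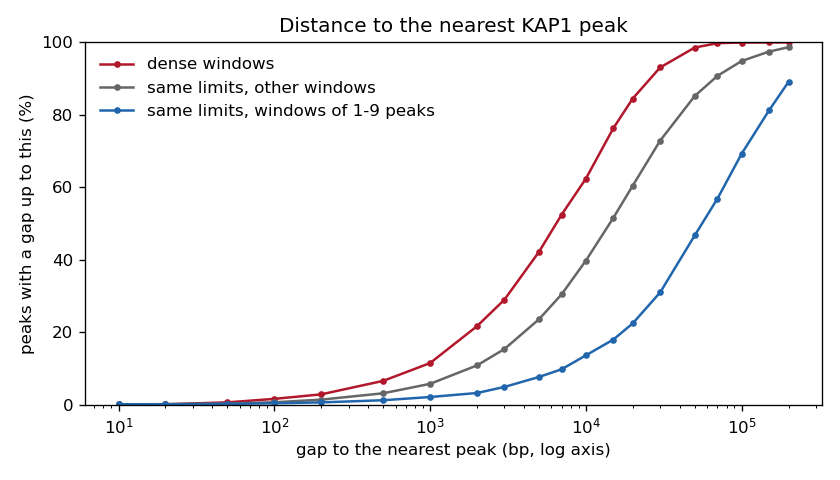
Percent of peaks (vertical axis) whose gap to the nearest peak is no longer than the value on the horizontal axis (bp, log axis), for peaks within the same score and width limits in dense windows, in all other windows and in windows of 1 to 9 peaks. At 10 kb the curves stand at 62.4, 39.7 and 13.6%.

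Few dense-window peaks formed tight groups. Peaks were joined into chains when the gap between them was at most 2 kb, and 4398 dense-window peaks (78.4%) stood alone on this scale. Pairs held 18.0% and chains of 3 or more held 202 peaks (3.60%), against 1.13% of the comparison peaks. The choice of crowded windows brings at least part of this contrast with it. A single chain reached 5 peaks, all of them dense-window peaks, at chr3:88030045-88038031. Its peaks were 393, 1032, 1088, 551 and 820 bp wide in order of position, with scores of 87.37, 99.59, 70, 73.29 and 66.72 and gaps between 875 and 1241 bp. The widths and scores of neighbouring peaks in the chain thus differed, and its narrowest peak had the second highest score.

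Spacing had a wide range. The shortest gap from a dense-window peak to any other peak was 10 bp. The closest pair in which both were dense-window peaks, chr9:63941566-63942589 and chr9:63942606-63943840, was 16 bp apart, with scores of 59.64 and 67.43. It lay at the end of the window that also had the longest empty stretch. The most isolated dense-window peak, chr16:10127685-10128258, had no other peak within 150312 bp although its window held 47. Peaks of the same window could thus be nearly joined or far apart.

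The dense-window peaks were wider than the comparison peaks at the same level of score. Their median width was 706 bp, with quartiles of 591 and 884 bp and a range of 309 to 1299 bp. Comparison peaks had a median of 619 bp, with quartiles of 523 and 738 bp. The median difference was 87 bp, a ratio of 1.14, and the interquartile ranges overlapped. Widths of 1000 bp or more were found in 14.0% of dense-window peaks and 6.30% of comparison peaks, and widths below 500 bp in 10.8 and 20.0%. The narrowest dense-window peak, chr11:113792291-113792599, spanned 309 bp with a score of 72.03.

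Scores within the limits did not follow. The median score was 61.51 for dense-window peaks and 61.66 for comparison peaks, and the quartiles were 54.94 and 72.33 against 54.98 and 72.48. Scores of 80 or more made up 14.0 and 14.5%. Most peaks of both kinds thus sat close to the lowest score of the list. Both sets were cut off at a score of 100 by the rule. Peaks at or beyond that score made up 9.06% of all peaks in dense windows and 7.87% in other windows.

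Width rose step by step with the density of the window. In windows of 1 to 9, 10 to 19, 20 to 29, 30 to 39 and 40 to 55 peaks, the median width of peaks within both limits was 564, 590, 622, 665 and 706 bp. The median scores over the same classes were 61.22, 61.48, 61.81, 61.89 and 61.51, with no such order. Peaks beyond the limit of 1300 bp were also more frequent in fuller windows. Whatever their score, they made up 0.528, 1.40, 2.52 and 4.29% of all peaks in the first 4 classes and 455 of 6501 peaks in dense windows. Peaks scoring 100 or more rose less, from 6.61 to 9.06%.

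**Figure D4:**
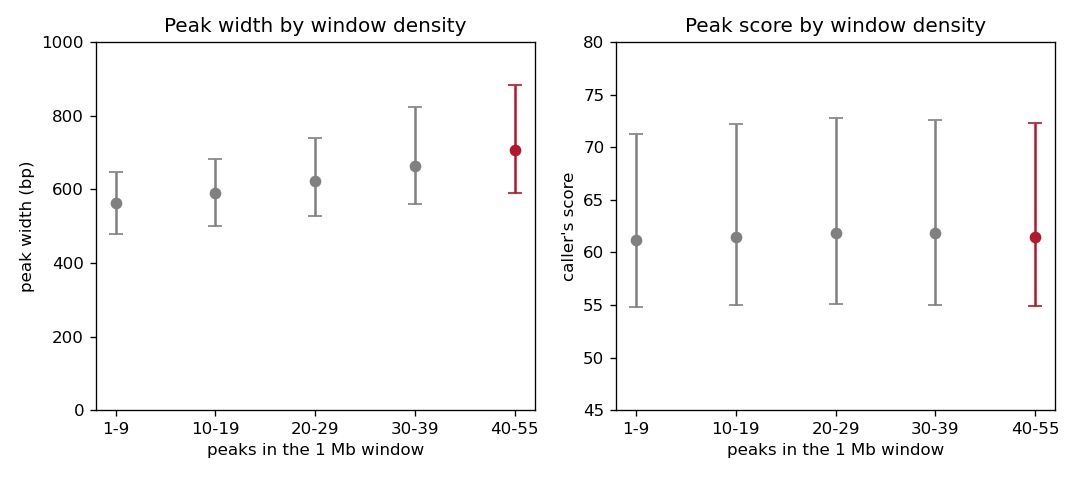
Median and interquartile range of peak width in bp (left) and of the caller's score (right, axis not starting at 0) for peaks within the same limits, by the number of peaks in their 1 Mb window, with dense windows in red. Median width goes from 564 to 706 bp, while median score stays between 61.22 and 61.89.

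The difference in width was present at every score. Among peaks scoring 50 to 55 the medians were 645 bp in dense windows and 584 bp elsewhere, and among those scoring 80 to 100 they were 843.5 and 705 bp. The difference was thus 61 bp in the weakest class and 138.5 bp in the strongest. Width and score were weakly related in both sets, with Pearson's r at 0.26 and Spearman's rho at 0.26 over the 5612 dense-window peaks, and at 0.22 and 0.20 over the comparison peaks. Both sets were cut off by the rule at a score of 100 and a width of 1300 bp, the values correlated here. The relation over all peaks can thus differ and is not given here. These are descriptions across peaks of 1 library.

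The difference was also present at every spacing. Dense-window peaks with a neighbour within 1000 bp had a median width of 711 bp, against 639 bp for comparison peaks at that distance. For gaps of more than 20000 bp the medians were 687.5 and 598 bp. Among all 2112 dense-window peaks more than 10 kb from any other peak, the median was 694 bp against 608 bp. Over the classes of gap the difference ranged from 66 to 89.5 bp. Whether closeness to a neighbour contributes to it was not tested.

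Dense-window peaks were the wider set on each chromosome that had any. The median was higher than that of comparison peaks on 18 of 18 chromosomes, by 43.5 to 128.5 bp. On chromosome 2 the medians were 750.5 and 623 bp, and on chromosome 19 they were 676 and 632.5 bp. Median score was higher on 8 of these chromosomes and lower on 10, which gives no direction. A neighbour within 10 kb was more frequent on 18 of 18, which the choice of crowded windows largely brings with it.

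**Figure D5:**
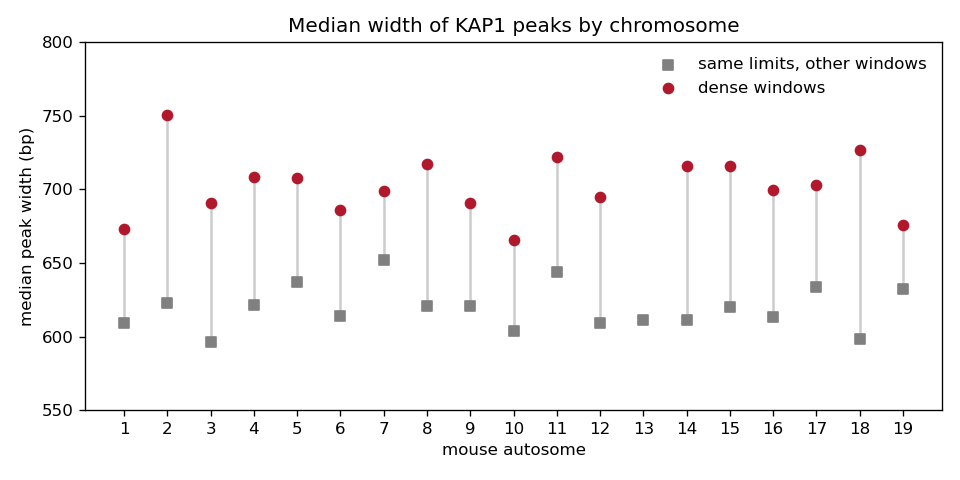
Median peak width in bp (vertical axis, not starting at 0) on each mouse autosome for peaks within the same limits in dense windows (red circles) and in other windows (grey squares). The red point is above the grey one on all 18 chromosomes with dense windows, and chromosome 13 has none.

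Medians of single windows ranged more widely than those of chromosomes. Each window median rests on 28 to 51 dense-window peaks, and medians of such small sets scatter more. The median width of dense-window peaks ranged from 574 to 913 bp over the 147 windows and was above the comparison median of 619 bp in 142. Of 1459 other windows with at least 10 peaks within the limits, 160 had a median above 706 bp, against 78 of the 147 dense windows. Since 706 bp is the median of the dense-window peaks themselves, the count of dense windows above it is largely set by that choice. The widest medians, 913 and 885 bp, belonged to chr11:117000001-118000000 and chr11:119000001-120000000, both in the run at the end of chromosome 11. The narrowest, 574 bp, belonged to chr10:120000001-121000000, where the 40 dense-window peaks also had a long median gap of 12488 bp. The ranges of dense and other windows overlapped widely, since other windows reached 979 bp. Medians of other windows can rest on as few as 10 peaks and come from more windows, so their extremes scatter more.

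Stronger peaks shared the dense windows, at a slightly higher share than elsewhere. Peaks scoring 100 or more made up 9.06% of all peaks in dense windows and 7.87% in other windows. A dense window held a median of 4 peaks scoring 100 or more, from 0 to 10, and 4 of the 147 held none. Other windows held a median of 1, and 824 of 2253 held none, a difference that the choice of windows by their number of peaks brings with it. For 736 dense-window peaks (13.1%) the nearest peak was beyond one of the limits, against 9.73% of comparison peaks. Of all 6501 peaks in dense windows, 889 were beyond a limit, so the 13.1% is close to their share there. The median width of the 736 was 749.5 bp against 701 bp for the other dense-window peaks, with no like values for comparison peaks. The dense-window peaks beside a strong or broad one were thus slightly wider.

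The 20 fullest windows held 37 to 51 dense-window peaks each, with median widths from 648 to 821.5 bp, all above the comparison median. In each, the dense-window peak with the highest score is given. All of these scores are near 100 because the limit stops there, so they show position and shape, not rank.

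Chromosome 15 had 5 of the 20. Its window at 80 to 81 Mb was the fullest of the genome with 55 peaks, 49 of them within the limits, and its top peak, chr15:80113079-80113782, scored 99.23 and lay 32686 bp from any other. The window at 99 to 100 Mb held 53 peaks, of which 51 were within the limits, the highest number of all dense windows, and its top peak chr15:99745687-99746601 scored 99.85. The next window, at 100 to 101 Mb, held 52, with chr15:100907692-100908647 at 97.35. The windows at 74 and 78 Mb held 51 each. The top peak of the first, chr15:74097896-74098313, was the narrowest of the 20 at 418 bp, and that of the second, chr15:78931220-78932327, was the widest at 1108 bp. Peaks of like score thus differed more than 2-fold in width within a few megabases.

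Chromosome 11 had 3. At 94 to 95 Mb there were 53 peaks with a median width of 787 bp, and chr11:94681955-94682865 scored 98.43. At 107 to 108 Mb there were also 53, narrower at 670 bp and closer together, with a median gap of 3069 bp, and chr11:107466888-107467753 scored 99.59. At 5 to 6 Mb there were 52, and chr11:5695137-5695812 scored 92.26. The windows at 94 and 107 Mb, with the same number of peaks, thus differed in width by more than the dense and comparison medians did. Their medians rest on just 45 and 47 dense-window peaks, and the part of scatter in this difference was not tested.

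Chromosome 4 had 3 as well. The window at 107 Mb held 54 peaks with chr4:107864363-107865103 at 95.03, the one at 141 Mb held 50 with chr4:141175817-141176806 at 97.96, and the one at 136 Mb held 49 with chr4:136692808-136693543 at 91.38. The last belonged to the run of 6 windows, and its median score of 67.84 was the highest of the 20.

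On chromosome 8 the windows at 123 and 124 Mb held 50 and 49 peaks. They had the widest medians of the 20, 821.5 and 814 bp, and 12 peaks in each were beyond the limits. Their top peaks were chr8:123035014-123035950 with 97.54 and chr8:124265809-124266845 with 97.42. These neighbouring windows thus combined many peaks with wide ones.

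The other 7 windows were single ones on their chromosomes among the 20. Windows with 54 peaks were at 135 Mb on chromosome 5, with chr5:135532096-135533069 at 99.62, at 133 Mb on chromosome 7, with chr7:133099179-133099950 at 93.64, and at 43 Mb on chromosome 9, with chr9:43771726-43772418 at 95.43. In the window on chromosome 9 the longest stretch without a peak was 54022 bp, the shortest such stretch of all dense windows. Chromosome 1 had 53 peaks at 136 Mb, with chr1:136656816-136657572 at 99.73, and the narrowest median of the 20, 648 bp. Chromosome 2 had 51 at 179 Mb, with chr2:179508746-179509619 at 93.41.

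The last 2 held 49 peaks. That on chromosome 3 at 88 Mb contained the chain of 5, and its top peak chr3:88031465-88032496, at 99.59, was the second of that chain. That on chromosome 12 at 86 Mb had the shortest median gap of all dense windows, 2491 bp, with chr12:86820925-86821612 at 97.29. Even so, 62.8% of its peaks within the limits had a neighbour within 10 kb, close to the 62.4% over all dense-window peaks.

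One window stood apart by its broad peaks. In chr14:26000001-27000000, chosen after its values were seen, 17 of 49 peaks were beyond the limits, the highest number of all dense windows. Peaks covered 6.16% of it, also the highest share, and the 32 that remained had a median width of 777 bp.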

How the data were processed

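KAP1, IgG and total input chromatin of sorted mouse bone marrow cells gave 1 library each, from 10 ng of DNA, fragments of 200 bp and 18 PCR cycles, per the labels' protocols. The submitters' processing notes name Bowtie and the build mm9 and state neither a version nor a role. Peaks carry MACS names in the deposited list. The sources used here do not give the caller's version, its threshold or the control it used. The authors marked the list as one without repeats, with no word on how these were left out. Column values are a score per peak, as the authors deposited it. Regions of strong signal can be split or joined by a caller, which changes both counts and widths.

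Windows, gaps and medians were computed with pandas 2.3.3 and numpy 2.4.6, and exact binomial (Clopper-Pearson) intervals with scipy 1.17.1. The script recovered known answers on simulated peaks. With 1 library there was no test. The peaks and comparisons were chosen with earlier results of these data known. Named are the 20 fullest windows with their highest-scoring peak, peaks at the limits and the closest pair; other named regions are extremes, chosen after their values were seen. Alternatives changed the grid, the window minimum, score and width limits and the neighbour distance.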

Additional observations from a re-analysis of the deposited data

How the results depend on the processing

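Which peaks count as dense-window peaks depended on the window rule. A grid shifted by 0.5 Mb gave 5488 peaks, of which 3168 were among the 5612 (56.5% of the 5612 and 57.7% of the shifted set), with a median width of 711 bp. A minimum of 35 peaks gave 10145 and one of 50 gave 725. Counting just peaks with a score of at least 60 gave 0, since no window then had more than 37 peaks. Ranking windows by those peaks instead kept 101 of the 147 windows and gave 5341 peaks. Windows of 0.5 Mb, midpoints and merged neighbours gave counts between 4623 and 8401. Checks of gene overlap and base composition were not run, as no mm9 reference was used. No paired analysis was possible because each group was 1 library.

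A neighbour was present for 42.2% within 5 kb and 84.5% within 20 kb (comparison peaks 23.5 and 60.4%), and for 45.3% when the neighbour had to score at least 60 (26.5%). Within 10 kb it was 59.4% with a minimum of 35 peaks and 69.2% with 50 (37.3 and 42.4%). Median width was 688 bp for scores below 80 (609 bp), 688 bp with a minimum of 35 (612 bp), 698 bp without chromosomes 2, 4 and 11 (617 bp), 721 bp without the width limit (622.5 bp) and 694 bp for peaks over 10 kb from another (608 bp). In each of these the dense-window peaks stayed the wider set. Median score was 60.71 for widths below 1000 bp (61.31) and 61.92 with a minimum of 50 (61.64), where dense-window peaks became the higher set, so the order of the scores depends on the settings. Settings for spacing, width and score with other window minimums, without chromosomes 2, 4 and 11, without the width limit or limited to distant peaks were chosen after seeing the data, as was the ranking. Precision is limited by the single library and its unknown depth.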
